A study of Mus musculus with 335 samples.

Results

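The Sox10-positive cells of the dorsal and the ventral side of the embryonic aorta were compared. The cells were chosen by a measured value: Ngfr+Pdgfrb- cells sorted from either side were kept where Sox10 reached at least 50 CPM (counts of a gene per 1000000 counts of its cell). The rule kept 108 of 182 Ngfr+Pdgfrb- cells, out of 335 cells in the series. It kept 71 of 93 cells from the dorsal side (76.3%, exact 95% limits 66.4% to 84.5%) and 37 of 89 from the ventral side (41.6%, 31.2% to 52.5%). Limits here and below are for counting error only.

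The embryos were wild-type mice at E11.5, and the cells came from the aorta-gonad-mesonephros (AGM) region that surrounds the dorsal aorta. The tissue was dissociated with collagenase, and single cells were sorted by surface marker into plates and sequenced by Smart-seq2, which reads whole transcripts. Ngfr is a neurotrophin receptor that marks cells of crest origin, and Pdgfrb marks mesenchyme and pericytes. The other groups were 65 EPCR+CD45+ cells (HSC) and 88 Pdgfrb+Ngfr- cells of the ventral side (Mesenchymal). Cells of a group were sequenced together as 1 pool, and no embryo or litter is named, so each side counts as 1 sample. No test or p-value was computed, and a difference of side cannot be told apart from a difference between the embryos, the sort or the libraries of the pools. A gene is called higher or lower where the mean CPM of the pools, cells weighted equally and 1 CPM added, differed at least 2-fold.

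Sox10 is a transcription factor that migrating neural crest cells keep when they become Schwann cell precursors, the glia that travel along growing nerves. Beside the aorta, crest cells and Schwann cell precursors give rise to sympathetic neurons and to chromaffin cells, which make catecholamines. On that path Sox10 is switched off while autonomic transcription factors such as Hand2 and Gata3, and then the enzymes of noradrenaline synthesis, are switched on. A transient intermediate between Schwann cell precursor and chromaffin cell has been named the bridge cell.

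Sox10 itself was used by the rule and is given as a description. In the 71 Dorsal cells it was 52.4 CPM at the lowest, 354 at the median and 742 at the highest. In the 37 Ventral cells the lowest was 59.6, the median 242 and the highest 802 CPM. The ranges overlapped over nearly their whole length. The Dorsal cells just inside the limit had 52.4, 55.4 and 58.6 CPM and those just outside 49.1, 48.2 and 46.3. The Ventral cells just inside had 59.6, 61.99 and 74.8 CPM and those just outside 26.2, 19.4 and 17.6, so the limit fell in a gap on the ventral side and within a run of cells on the dorsal side. Sox10 was 0 in every HSC cell, and 1 Mesenchymal cell had 11.3 CPM.

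**Figure D1:**
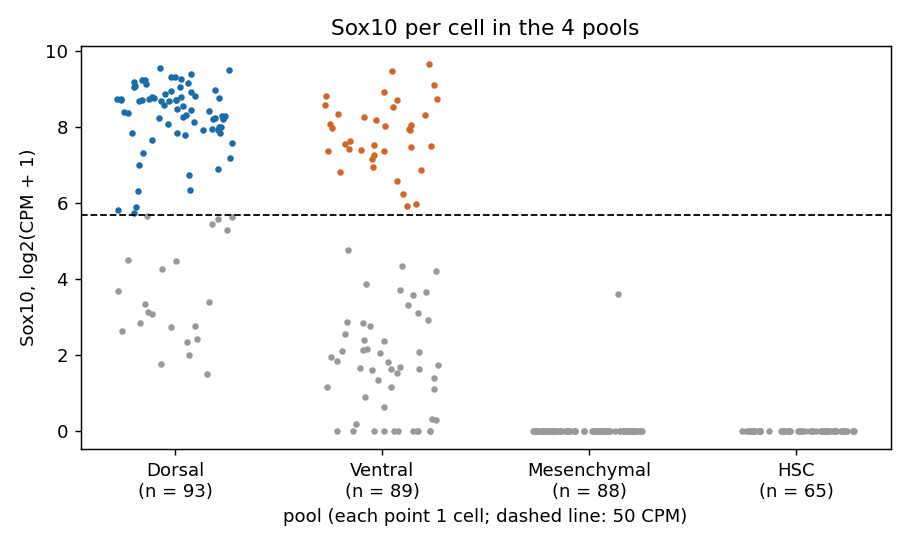
Sox10 per cell as log2(CPM + 1) on the vertical axis, by pool on the horizontal axis, each point 1 cell. Coloured points lie at or above the dashed line at 50 CPM (71 Dorsal, 37 Ventral); grey points lie below it.

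The label was checked against marker sets. The summed level of 8 crest and Schwann cell precursor markers without Sox10 ran from 133 to 4079 CPM in the Dorsal cells (median 1528) and from 110 to 2427 in the Ventral cells (median 980), against a median of 0 in HSC and Mesenchymal cells. All 8 were measured, which means a mean of at least 5 CPM averaged over the sides and at least 5 counts in at least 5 cells. The 8 sympathoadrenal neuron markers, all measured, summed to 6.31 to 10284 CPM in the Dorsal cells (median 237.5). In the Ventral cells their sum was 15.9 to 5029 CPM (median 486.9). Their highest sums were above those of the crest markers, so the rule also kept cells high in sympathoadrenal genes. Of 8 sensory neuron markers 2 were in the table and 1, Isl1, was measured, with sums up to 1416 and 653 CPM. Isl1 is also counted below among the sympathoadrenal transcription factors, so these sums do not set sensory cells apart. Of 13 macrophage markers in the table, 2 were measured, their sum reached at most 327 CPM in a Dorsal and 286 in a Ventral cell, and Fcgr1 had 5 counts in no cell. Of 11 endothelial markers 3 were measured, the sum reached 266 and 366 CPM, and Cdh5, Tek, Emcn and Erg had 5 counts in no cell. Of 10 haematopoietic progenitor markers 2 were measured, with sums up to 300.1 and 371 CPM and Gfi1 at 5 counts in no cell. Of 9 smooth muscle and pericyte markers 3 were measured, with sums up to 597 and 1385 CPM and Myh11 at 5 counts in no cell. Fibroblast-like mesenchyme markers (3 of 6 measured) were higher on the dorsal side, with sums of 5.34 to 2104 CPM (median 343) against 0 to 740 (median 171). Their part in the differences between the sides was not tested. Values for the 51 Dorsal and 32 Ventral cells at or under 500 CPM are given beside the myelin, receptor, sympathoadrenal and matrix genes. Of all 10069 genes measured in those cells 5.17% were at least 2-fold higher on the dorsal side and 2.75% lower.

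The Dorsal cells were sequenced more deeply. Totals ran from 279531 to 3861567 counts (median 1074637) in the Dorsal cells and from 149501 to 8724877 (median 610335) in the Ventral cells. The median number of genes seen was 8741 and 7964, and the median share of mitochondrially encoded transcripts was 4.94% and 5.68%. The deepest Ventral cell of the set held 20.5% of the counts of its side. Of the index pairs that mark cells, 26 occurred in both sides' sets, as plates of 12 i7 and 8 i5 indices allow. Shares of positive cells are therefore given with every cell thinned at random to 400000 counts, which left 68 Dorsal and 29 Ventral cells.

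Over 10089 measured genes, 382 (3.79%) were at least 2-fold higher in the Dorsal cells and 250 (2.48%) at least 2-fold lower, with a median log2 fold of 0.00. Among the Dorsal-high genes were the adhesion gene Alcam and the adaptor gene Afap1l2. Among the Dorsal-low genes were Asb4, Tbx20 and Thbd. The cells of each pool were also split by odd and even i7 index: 148 of the 382 and 70 of the 250 genes were past 2-fold the same way in both sets, and 365 and 211 kept their sign in both. Most calls were thus not past 2-fold in both index sets. By the mean of log2(CPM + 1), which depends more on how many cells are at 0, 680 genes were higher and 168 lower, with a median of 0.13 over all genes in place of 0.00, and folds below that come from this measure are to be read against that shift. The named genes were picked for holding in both sets (75 higher and 18 lower genes met all criteria, and 11 higher and 12 lower ones are described), so their agreement across the indices is a criterion and not a result.

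Of the 8 crest and Schwann cell precursor markers above, 4 were called higher in the Dorsal cells, all 8 had a log2 fold above 0, and the median was 0.94. Some other genes of these glia were within 2-fold. Erbb3, the neuregulin receptor on which these glia depend, had 0.862 CPM in the lowest, 161 in the median and 557 in the highest Dorsal cell, and 0, 145 and 632 CPM in the Ventral cells. The ranges coincided, and the log2 fold was 0.01. Thinned to equal depth, at least 5 counts of Erbb3 were found in 89.7% of Dorsal (exact 95% limits 79.9% to 95.8%) and 86.2% of Ventral cells (68.3% to 96.1%). Fabp7, a fatty acid binding protein of glial precursors, had medians of 72.7 and 74.5 CPM, highest values of 691 and 188, and a log2 fold of 0.47. Cdh19, a cadherin of Schwann cell precursors, had means of 198 and 116 CPM and a log2 fold of 0.77.

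Over the longer list of glial and crest genes the calls were all toward the Dorsal cells. Of 33 Schwann cell precursor and crest genes measured, 9 were called higher and 0 lower, with a median log2 fold of 0.54 and 29 above 0. Among the 9 were Foxd3, Gfra3, Egfl8, Plekhb1, Gpr37, Sfrp1, Art3 and Afap1l2. Over the alternatives between 3 and 17 of the list were called higher. The fewest were in the cells with an odd i7 index, where 7.91% of all genes were higher. The most were by mean log2, with 6.74% of all genes higher. With an even index 2 of the list were called lower, and 1 in cells of 400000 to 1500000 counts.

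Alcam (chromosome 16, 52248996 to 52454074, GRCm38), an immunoglobulin-type adhesion protein, had a median of 97.8 CPM in the Dorsal cells, between 0 and 809. The Ventral median was 1.43, between 0 and 392. The mean was 139 against 26.6 CPM, a log2 fold of 2.34, and after thinning 75% and 31.03% of cells were positive. The ranges overlapped, with most Ventral cells in the lower part of the Dorsal range.

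Afap1l2 (chromosome 19, 56912361 to 57008228), an actin-associated adaptor of Src signalling, had a Dorsal median of 55.2 CPM and a highest value of 408. The Ventral median was 0 and the highest value 166. Its log2 fold was 2.33, and 69.1% against 24.1% of thinned cells were positive. Gfra3, the artemin receptor of sympathetic and glial precursors, had medians of 85.04 and 0 CPM but nearly the same highest value, 576 and 572. Its log2 fold was 1.25. Egfl8 had medians of 106 and 0 CPM, highest values of 767 and 390, and a log2 fold of 1.59. Foxd3, a transcription factor of early crest, had medians of 16.3 and 0 CPM, highest values of 260 and 125, and a log2 fold of 1.12. Sfrp1, a secreted Wnt antagonist, had medians of 201 and 26.2 CPM, highest values of 1075 and 477, and a log2 fold of 1.37. For each of these genes the Ventral median and the highest Ventral cell were below those of the Dorsal cells, and the ranges overlapped.

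**Figure D2:**
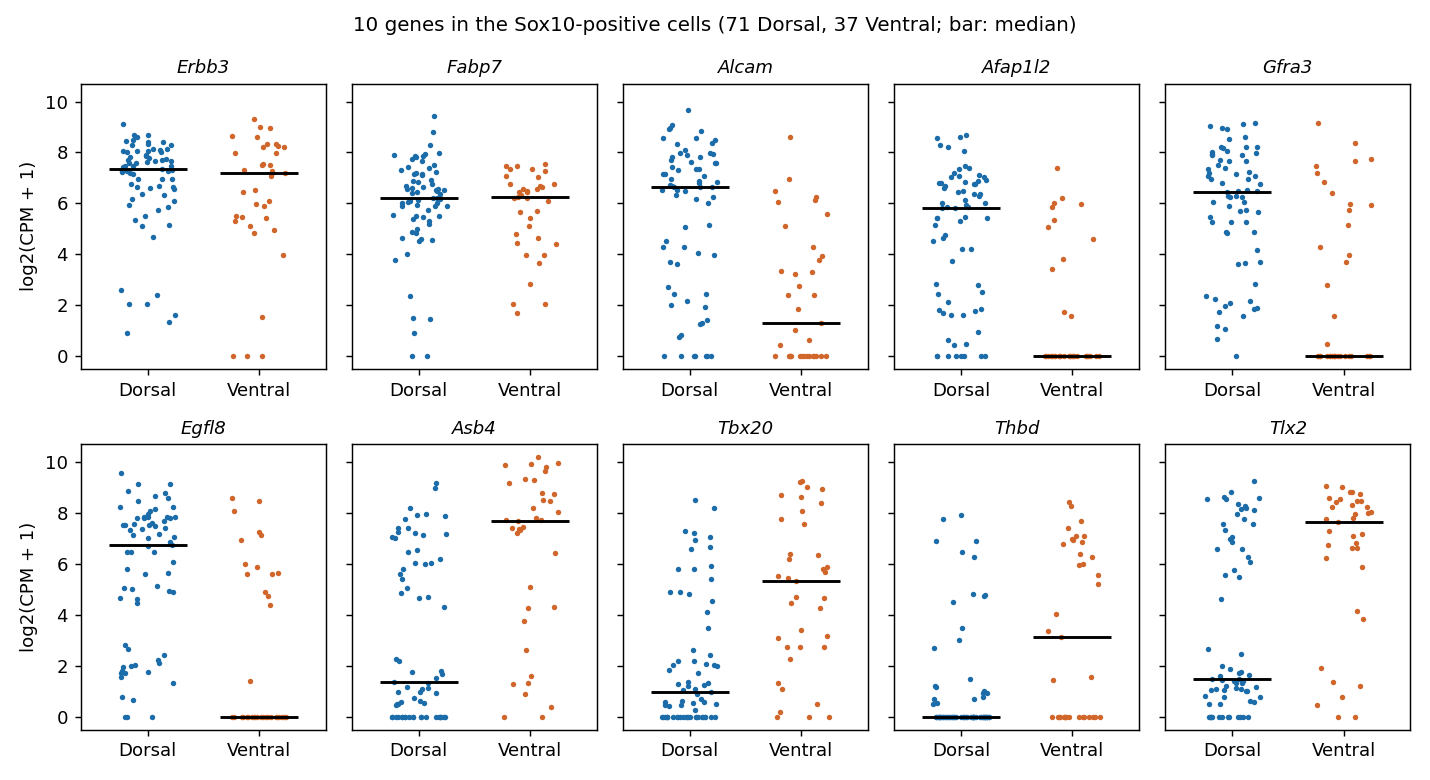
Level per cell as log2(CPM + 1) on the vertical axis for 10 genes in 71 Dorsal and 37 Ventral Sox10-positive cells; each point is 1 cell and the bar is the median. Erbb3 coincides between the sides, and Fabp7 has similar medians with its highest cells on the dorsal side. Alcam, Afap1l2, Gfra3 and Egfl8 are higher in Dorsal cells, and Asb4, Tbx20, Thbd and Tlx2 are lower.

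Myelin and pigment genes were called in part. Of 8 myelin genes measured 3 were higher, among them Mbp at 1.54 and Pmp22 at 1.13, and 0 lower. Cnp, another myelin gene, was near equal with means of 257 and 196 CPM. Mbp, myelin basic protein, was at a median of 0 CPM on both sides; without the cells above 500 CPM of fibroblast-like markers its log2 fold was 0.04, that of Pmp22 was 0.65, and 1 of the 8 myelin genes was called higher. Pmp22 was -0.05 in the cells with an odd i7 index. Of 5 melanocyte genes measured, Dct and Rab38 were higher and Mitf lower. Dct, a melanin pathway enzyme that Schwann cell precursors also carry, was positive in 29.4% of thinned Dorsal cells (limits 18.98% to 41.7%) and 6.90% of Ventral cells (0.846% to 22.8%), with a log2 fold of 1.74. Rab38, a melanosome trafficking gene, had means of 9.33 and 2.35 CPM. Mitf, the master factor of melanocytes, had means of 2.14 and 8.98 CPM, a log2 fold of -1.67 with a median of 0 on both sides, and it turned to 1.43 in the cells with an odd index. Dct and Alcam occurred together in 24 of 71 Dorsal cells and in 3 of 37 Ventral cells.

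The other genes of the higher set were Gpr37, Olfr889, Pla2g16, Scn8a, Slc48a1, Tecrl, Tgfbr3, Hspa1a and Fam196a. Gpr37, a glial G protein-coupled receptor (chromosome 6, 25665878 to 25690729), had a mean of 16.6 against 1.54 CPM, a log2 fold of 2.79, and was positive in 27.9% against 3.45% of thinned cells. Scn8a, a voltage-gated sodium channel, had means of 55.2 and 12.02 CPM (log2 fold 2.11). Tgfbr3, the TGF-beta co-receptor betaglycan, had means of 37.8 and 8.92 CPM (1.97). Slc48a1, a haem transporter, had means of 32.4 and 6.79 CPM (2.10), and Pla2g16, a phospholipase, 9.42 and 1.08 (2.33). Tecrl had means of 22.3 and 4.94 CPM and Fam196a 9.98 and 1.95. Olfr889, with means of 67.8 and 11.6 CPM, belongs to the olfactory receptor family and Hspa1a has a near-identical neighbour, Hspa1b, so the assignment of reads to both is uncertain. All these genes had cells at 0 CPM on both sides.

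Among the genes lower in the Dorsal cells were Asb4, Tbx20, Thbd and Tlx2, which had at least 5 counts in 28, 24, 18 and 29 of the 37 Ventral cells. Asb4 (chromosome 6, 5383386 to 5433022), an ankyrin-repeat protein of an imprinted cluster, was 0 CPM at the lowest, 1.59 at the median and 583 at the highest in the Dorsal cells. In the Ventral cells it was 0, 204 and 1171 CPM. In the Mesenchymal cells, also of the ventral side, Asb4 ran from 0 to 2840 CPM, so it was not particular to Sox10-positive cells. Most Dorsal cells lay below the Ventral median, though the ranges overlapped. The mean was 60.2 against 317 CPM, a log2 fold of -2.37, and 41.2% (limits 29.4% to 53.8%) against 75.9% (56.5% to 89.7%) of thinned cells were positive. Of 18 imprinted genes measured, Asb4 was the 1 called, and the list's median was 0.00.

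Tbx20 (chromosome 9, 24718138 to 24774303), a T-box transcription factor, had a Dorsal median of 0.968 CPM and a highest value of 364. The Ventral median was 39.8 and the highest value 613. The log2 fold was -2.28, and 25% against 58.6% of thinned cells were positive. Thbd (chromosome 2, 148404466 to 148408188), thrombomodulin, had medians of 0 and 7.69 CPM and highest values of 246 and 347. Its log2 fold was -1.99. Tlx2, a homeobox factor of autonomic precursors, had medians of 1.804 and 200.2 CPM but the higher maximum on the dorsal side, 615 against 530. Its log2 fold was -1.26. For each of these genes the Dorsal median was lower and the ranges overlapped, and for Tbx20 and Thbd the highest Dorsal cell was also below the highest Ventral cell.

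Tgfbi (chromosome 13, 56609523 to 56639562), a secreted matrix protein, had the largest difference of the lower set, with a log2 fold of -2.87. It had at least 5 counts in 1 Dorsal and 10 Ventral cells, with means of 0.954 and 13.3 CPM. Glb1l2 had means of 4.69 and 37.3 CPM (log2 fold -2.75). Stra6, a receptor for retinol uptake, had means of 25.8 and 112 CPM (-2.07). Spint2, a serine protease inhibitor, had means of 8.88 and 37.04 CPM (-1.94), and Slc39a8, a zinc transporter, 11.2 and 42.6 (-1.84). The homeobox factors Lbx2 and Prrx2 had means of 3.54 and 15.3 and of 2.87 and 12.5 CPM. Adck1 had means of 6.55 and 24.7 CPM and Kdm1b, a histone demethylase, 8.36 and 30.8. In each case cells at 0 CPM occurred on both sides.

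Regulators of the sympathoadrenal path were called lower in part, and the count depended on the range of Sox10. Of 14 sympathoadrenal transcription factors measured, 0 were called higher and 3 lower (Tbx20, Tlx2 and Gata2 at -1.01), with a median log2 fold of -0.41. Gata3 had means of 85.5 and 118 CPM (-0.46), Hand2 of 21.4 and 28.8 (-0.41) and Insm1 of 27.8 and 50.7 (-0.85). Phox2a had means of 16.7 and 11.2 CPM, and Isl1 of 78.7 and 79.7. In the 26 Dorsal and 20 Ventral cells with Sox10 between 150 and 350 CPM, a range chosen after seeing the data, 8 of 13 measured factors were lower and the median was -1.59. Of all 9915 genes measured in that range 7.76% were higher and 5.8% lower, shares that stand beside each list given for it below. There Isl1 was at -3.96, Hand2 at -3.01, Gata2 at -2.32, Gata3 at -1.59 and Phox2a at -0.22. Without the cells high in fibroblast-like markers 1 of 15 was lower, with a median of -0.12. Of 9 bridge cell genes measured 2 were lower (Thbd and Tlx2), 1 higher, and 7 below 0, with a median of -0.70. The Notch ligand Dll3 had means of 65.6 and 126 CPM (-0.93), and the serotonin receptor genes Htr3a and Htr3b 10.6 and 19.1 and 10.6 and 17.8. The 1 higher gene, Dgkk, a diacylglycerol kinase, had 5 counts in 5 Dorsal and 2 Ventral cells.

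Catecholamine genes were higher in the means, through few Dorsal cells. Of 9 measured, 4 were called higher in the Dorsal cells (Th, Dbh, Gch1 and Slc18a2) and 0 lower, with a median log2 fold of 0.93. Th, the first enzyme of catecholamine synthesis, had medians of 1.69 and 0.949 CPM and highest values of 860 and 79.9. Dbh, which makes noradrenaline, had medians of 9.98 and 10.5 CPM and highest values of 5450 and 1740. The typical cell of either side was therefore alike, and the means differed through a few high Dorsal cells. On the mean of log2 values the difference was 0.06 for Dbh, 0.48 for Th and -0.08 for Gch1, which makes the cofactor of Th. Slc18a2, the vesicular monoamine transporter, had a log2 fold of 1.46 and was -0.12 in the cells with an odd index. With Sox10 between 150 and 350 CPM 0 of 8 catecholamine genes were higher and 1 was lower, with a median of -0.05.

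Pan-neuronal genes were called in both directions. Of 20 measured, Stmn2, Snap25 and Rtn1 were higher, Ina lower, and the median was 0.08. Stmn2, a tubulin regulator of growing axons, had medians of 0.751 and 0.978 CPM but highest values of 1093 and 149. Tubb3, neuronal tubulin, had medians of 6.76 and 56.7 CPM and a log2 fold of -0.61. Nefl, a neurofilament subunit, had medians of 3.86 and 108 CPM (-0.95), and Elavl4, an RNA-binding protein of young neurons, 97.0 and 154 (-0.56). The typical Dorsal cell was thus lower in Tubb3, Nefl and Elavl4, but not over the list. Of the 20 genes 11 had a log2 fold above 0 and 9 below. The summed list had similar medians of 2241 CPM in the Dorsal and 2314 in the Ventral cells. With Sox10 between 150 and 350 CPM 0 of 16 pan-neuronal genes were higher and 6 lower. With Sox10 at 25 CPM or more 0 of 20 were called, beside 3.45% of all genes higher and 2.14% lower. Of 8 enteric crest genes 1, the nicotinic receptor subunit gene Chrna3, was higher. Ret, the receptor of GDNF, had means of 45.5 and 69.6 CPM, and its co-receptor Gfra1 had 73.5 and 41.9. Both boundary cap genes measured were higher, Npr3 at 1.31 and Sema6a at 1.69. The 1 sensory neuron gene measured was not called.

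**Figure D3:**
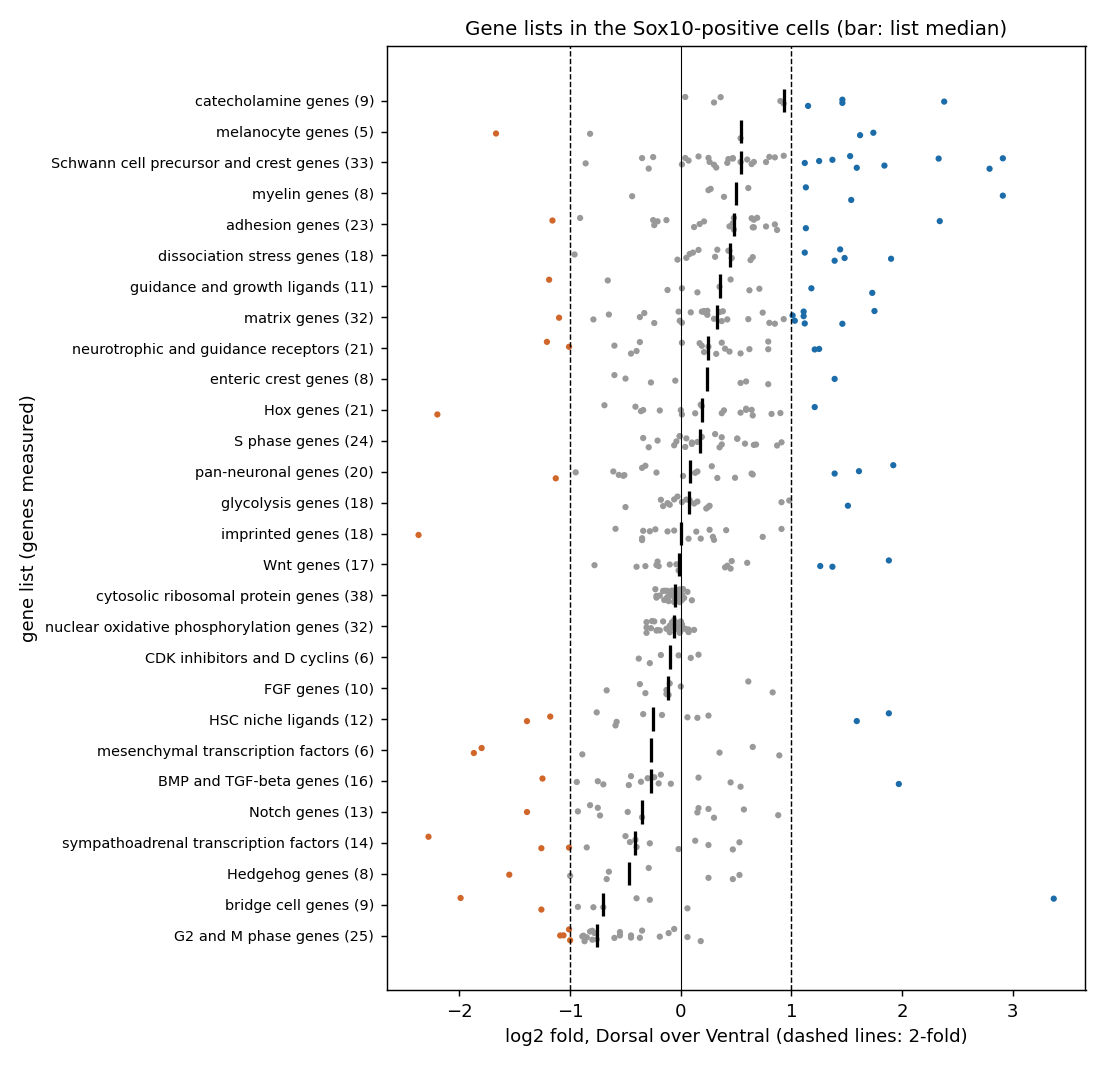
Log2 fold of Dorsal over Ventral on the horizontal axis for the genes of each list with at least 5 genes measured, lists on the vertical axis ordered by their median (bar). Blue and orange points are past 2-fold; G2 and M phase genes and bridge cell genes have the lowest medians (-0.76 and -0.70) and catecholamine genes the highest (0.93).

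The Sox10-positive cells were mixed in the genes that differed between the sides, and the mixture was seen within each side. Asb4 had at least 5 counts in 29 of 71 Dorsal and 28 of 37 Ventral cells. Gfra3 without Asb4 was found in 39 of 71 Dorsal and 7 of 37 Ventral cells, and Gfra3 together with Asb4 in 19 and 8. Alcam without Asb4 was found in 39 Dorsal and 6 Ventral cells, and Alcam together with Gfra3 in 49 and 10. Asb4 together with Tbx20 was found in 16 Dorsal and 21 Ventral cells. Each of these combinations was thus found on both sides. The numbers are unthinned, and the part of depth in their different shares was not tested.

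Across the cells of a side Asb4 went against Erbb3 and the Dorsal-high genes it was compared with. Fabp7 and the remaining genes of the glial list were not compared with it. The Spearman coefficient of Asb4 with Egfl8 was -0.56 over 71 Dorsal cells and -0.59 over 37 Ventral cells. It was -0.50 and -0.51 with Afap1l2, -0.43 and -0.57 with Gfra3, -0.39 and -0.29 with Alcam, and -0.43 and -0.49 with Erbb3, whose level did not differ 2-fold between the sides. Igfbp5, an IGF binding protein with a log2 fold of 1.87, was at -0.48 and -0.51. Asb4 went with Tlx2 at 0.48 and 0.72, with Tbx20 at 0.39 and 0.63 and with Thbd at 0.37 and 0.48. The cells of a side share 1 pool, and the coefficient of total counts with Asb4 was -0.20 and -0.18.

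**Figure D4:**
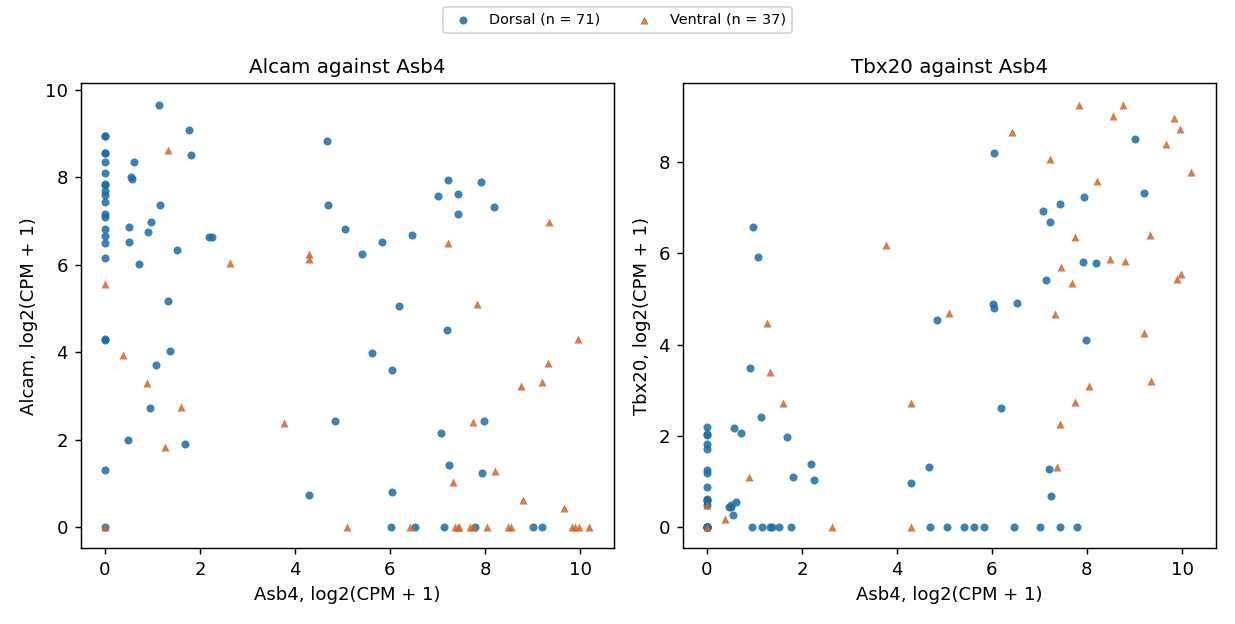
Alcam (left) and Tbx20 (right) against Asb4 per Sox10-positive cell, all axes as log2(CPM + 1); circles are 71 Dorsal cells and triangles 37 Ventral cells. Ventral cells mostly lie at high Asb4 and low Alcam, and Tbx20 is highest in cells that also hold Asb4.

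Receptors, ligands and signalling genes differed in single members. Of 21 neurotrophic and guidance receptors 2 were higher (Gfra3, and Erbb2, the partner of Erbb3, at 1.21) and 2 lower (Plxna2, a semaphorin receptor, at -1.21 and Robo1, a Slit receptor, at -1.01). Without the cells high in fibroblast-like markers 0 of 22 were higher and 1 lower, with Gfra3 at 0.82 and Erbb2 at 0.58. Ngfr, used for the sort, had a median of 307 CPM in the Dorsal and 55.96 in the Ventral cells. Of 11 ligands 2 were higher, Hbegf, an EGF family ligand, at 1.73 and the semaphorin gene Sema3d at 1.18, and 1 was lower. Ednrb, the endothelin receptor of crest, had medians of 668 and 285 CPM and a log2 fold of 0.54. Of 17 Wnt genes 3 were higher (Wnt5a at 1.88, Sfrp1 and Dkk3 at 1.26) and 0 lower. Wnt5a, a ligand of non-canonical Wnt signalling, had means of 21.01 and 4.99 CPM and was past 2-fold in each of the 19 alternatives. Among these, leaving out the filter on low values cannot change a fold.

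Of 16 BMP and TGF-beta genes Tgfbr3 was higher and Msx2, a BMP-induced homeobox factor, lower at -1.25. Of 13 Notch genes the ligand Dll1 was lower at -1.39. Hes6, a neurogenic partner of that pathway, had means of 87.5 and 155 CPM (-0.82). Of 8 Hedgehog genes the pathway's transcription factor Gli2 was lower at -1.55, and of 10 FGF genes 0 were called. Of 12 HSC niche ligands measured, Wnt5a and Vegfa (1.59) were higher and Igf1 (-1.18) and Dll1 lower. Of 21 Hox genes, which record position along the body axis, 1 was higher and 1 lower, the latter Hoxc10, with 5 counts in 6 Dorsal and 10 Ventral cells and a log2 fold of -2.20. Of 6 mesenchymal transcription factors Prrx2 and Dlx5 (-1.87) were lower.

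Matrix and adhesion genes were higher in the Dorsal cells in part. Of 32 matrix genes 7 were higher (Col1a1, Col1a2, Col4a1, Col4a2, Col6a1, Sparcl1 and Matn2) and 1 lower (Col4a5), with a median of 0.33. Col1a2, a chain of fibrillar collagen, had medians of 155 and 91.3 CPM and a log2 fold of 1.11. Col4a1 and Col4a2, chains of the basement membrane collagen that Schwann cells lay down, had medians of 37.5 and 1.41 and of 30.3 and 1.71 CPM. Col1a1 had a median near 1 CPM on both sides, and its log2 fold of 1.75 rested on few cells. Without the cells high in fibroblast-like markers 3 of 31 matrix genes were higher and 0 lower, with Col1a1 at 0.01 and Col1a2 at 0.56. Col1a1 and Col1a2 are among the markers by which those cells were left out. Their smaller folds there, and part of the smaller count, thus follow from the choice of cells. In the cells with an odd index 0 of 29 measured matrix genes were higher, beside 7.91% of all genes, and the list's median was -0.13. The matrix difference was thus not held by both index sets. Of 23 adhesion genes Alcam and the integrin gene Itgb5 (1.13) were higher and the protocadherin gene Pcdh17 lower (-1.16). Cdh2, N-cadherin, had medians of 323 and 148 CPM (0.85), and Itga4, an integrin subunit of crest cells, 360 and 211 (0.66).

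G2 and M phase genes lay mostly below 0, and few were called. Of 25 measured 0 were called higher and 4 lower (Hmmr at -1.09, Mki67 at -1.06, Cenpa at -1.01, and Ccnb2 at the 2-fold limit), with a median of -0.76 and 23 below 0. Mki67, a proliferation antigen, had means of 65.8 and 138 CPM and was positive in 36.8% (limits 25.4% to 49.3%) and 51.7% (32.5% to 70.6%) of thinned cells, limits that overlap. The 24 S phase genes had 0 calls and a median of 0.17. Summed G2 and M phase genes reached 1000 CPM in 25 of 71 Dorsal and 16 of 37 Ventral cells. Among the cells of 400000 to 1500000 counts, a range chosen after seeing the data, the list's median was -0.19 with 0 calls, and with counts summed over cells it was -1.69 with 20 genes lower. With Sox10 at 100 CPM or more there were 0 calls and a median of -0.46. With 10 CPM added in place of 1 there were 0 calls and a median of -0.57, where 0.446% of all genes were lower. With thinned counts 8 were lower at a median of -0.73, and with Sox10 between 50 and 500 CPM 12 at -0.97. With an odd and an even index 5 and 8 were lower, beside 5.26% and 4.57% of all genes. Of all genes 5.85% were lower with summed counts, 2.91% with thinned counts and 2.75% in that Sox10 range. With Sox10 at 100 CPM or more 2.83% of all genes were lower, and 3.93% in the cells of 400000 to 1500000 counts. Depth moved with the result in part of these settings, and its part in it was not tested. Of 6 CDK inhibitors and D cyclins 0 were called. Cdkn1c, a CDK inhibitor, was high on both sides, with medians of 2744 and 4607 CPM.

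Some immediate early and heat shock genes, which respond to dissociation, were higher in the Dorsal cells. Of 18 measured 5 were higher (Fos at 1.48, Junb at 1.44, Jun at 1.39, Ddit3 at 1.12 and Hspa1a at 1.90) and 0 lower, with a median of 0.44. Fos had medians of 100.4 and 14.2 CPM. The summed level of the list was similar, with medians of 4008 CPM in the Dorsal and 3828 in the Ventral cells. In the 34 Dorsal and 20 Ventral cells at or below the median of that sum the list's median was -0.13. Those cells were picked by the level of the same genes, so this value does not bear on the list's difference. With Sox10 between 150 and 350 CPM 0 of 17 were higher and 1 lower, with Fos at 0.48 and Hspa1a at 0.44. In the cells low in that sum 257 of the 382 higher and 170 of the 250 lower genes remained past 2-fold the same way, among them Alcam, Asb4 and Tbx20. These cells are part of those on which the genes were called, so part of this overlap is built in. Of all 9914 genes measured in them 6.29% were higher and 4.87% lower. The part of dissociation in the differences was not tested. The 38 ribosomal protein genes and the 32 nuclear oxidative phosphorylation genes had 0 calls and medians of -0.05 and -0.06. Of 18 glycolysis genes 1, Pdk1, was called (1.51).

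The same folds were taken between the 22 Dorsal and 52 Ventral Ngfr+Pdgfrb- cells with Sox10 under 50 CPM, which come from the same pools. There 714 of 10613 genes (6.73%) were higher in Dorsal and 1112 (10.5%) lower. Crest and Schwann cell precursor markers summed to medians of 74.5 and 11.1 CPM in these cells. Among the 11 Dorsal-high genes described, Hspa1a (1.89) was past 2-fold the same way, and Tgfbr3 was lower at -2.95. Alcam was at 0.59 and Afap1l2 at -0.92. Among the 12 Dorsal-low genes, Tgfbi (-1.15), Glb1l2 (-2.36), Asb4 (-1.05) and Lbx2 (-1.12) were past 2-fold the same way. Tbx20 was at 0.56 with means of 174 and 118 CPM, and Tlx2 at 0.43 with 187 and 139. Slc39a8 (1.51) and Spint2 (1.06) were higher in Dorsal there, and Igfbp5 was at -2.31. The difference between the 2 sets of cells was not tested, since each rests on the same 2 pools.

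**Figure D5:**
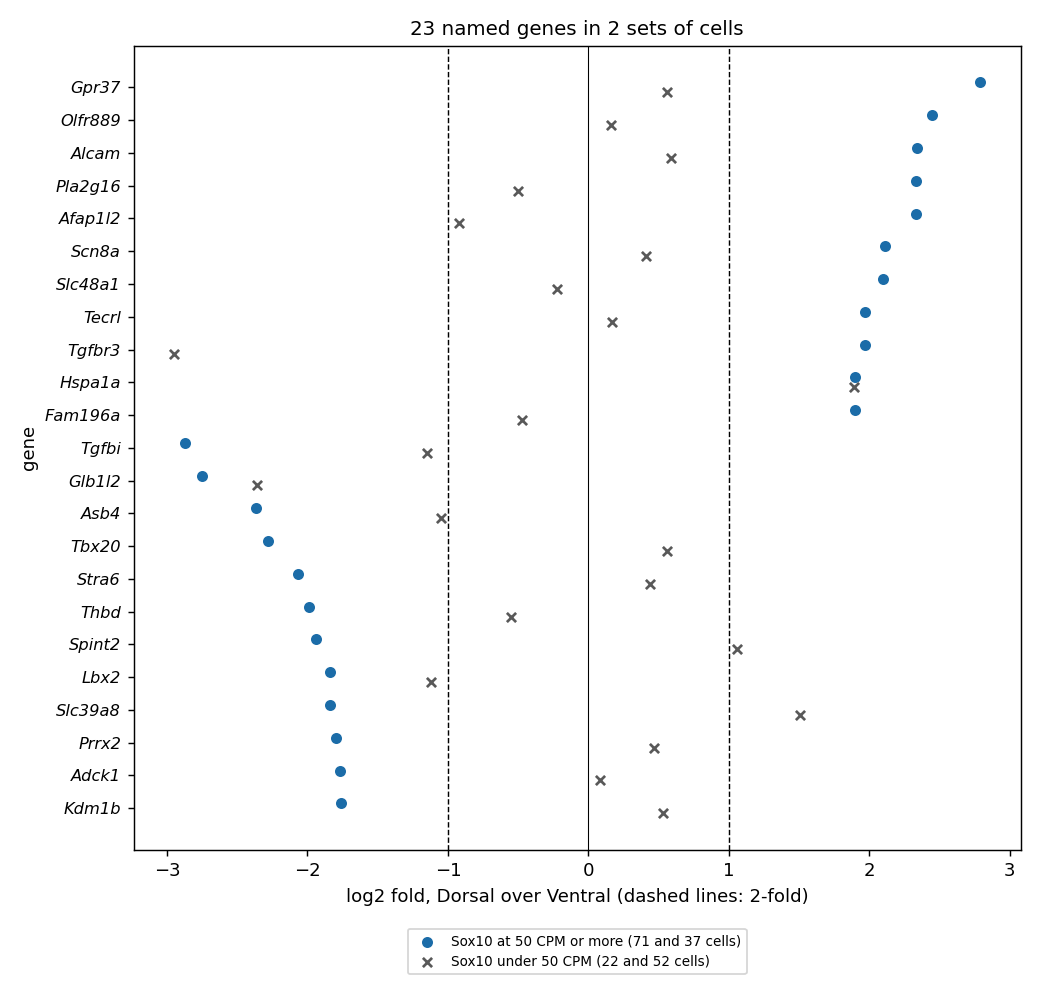
Log2 fold of Dorsal over Ventral on the horizontal axis for 23 genes of the naming rule in 2 sets of cells: Sox10 at 50 CPM or more (circles, on which the genes were chosen) and Sox10 under 50 CPM (crosses). Crosses lie within 2-fold or on the other side of 0 for most of the genes.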

How the data were processed

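Single-cell Smart-seq2 libraries of 335 cells were used as deposited. The main table holds estimated counts per gene from the authors; the submitters' processing notes name kallisto 0.43.1 and the build GRCm38, while annotation and filters are not given in the sources used here. The deposited log2 table holds log2 values of depth-scaled counts by the authors and served 1 alternative. Of 14109 entries, 661 without a symbol (2.96% of counts) were left out.

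CPM was computed here from the estimated counts of each cell. A gene was measured where the mean CPM of the 2 sides averaged at least 5 and at least 5 cells had at least 5 counts. Folds are log2 ratios of mean CPM + 1 with cells weighted equally, which understates the change of low genes; Sox10 was left out. With 1 pool per side there was no test. Shares of cells used at least 5 counts, with exact Clopper-Pearson 95% limits. The scripts were tested on simulated data. Positions came from GENCODE M21 (13038 symbols matched). Cells were sorted singly into wells, so doublets were not called. The largest correlation between cells of a pool was 0.743, so none was a copy of another.

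Named genes were, per direction, the 12 with the largest fold that reached 5 counts in at least 25% of the higher side's cells and differed at least 2-fold the same way by summed counts, by mean log2, in odd-index and even-index cells, and without the deepest cell of each side; sort genes, mitochondrially encoded genes and unnamed loci were left out. List members were named by size of fold or as markers; others, such as Igfbp5, Nefl, Hes6, Cdh2 and Itga4, were chosen after their values were seen. The cells, the 30 lists and the 14 marker sets were chosen with earlier results of these data known. A gene on several lists counts in each of them. The software was Python 3.11.15 with numpy 2.4.6, pandas 2.3.3, scipy 1.17.1 and matplotlib 3.10.9. Results are given for 16 alternatives listed at the start and 3 added after seeing the data; Asb4 was chosen for the comparison across cells after its values were seen. A few genes, with 2 alternatives that use them, are not reported here.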

Additional observations from a re-analysis of the deposited data

How the results depend on the processing

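The counts of 382 higher and 250 lower genes moved by over 1.5 times under several alternatives. They were 1078 and 590 with summed counts, 90 and 45 with 10 CPM added in place of 1, 823 and 519 with no filter on low values, 793 and 527 in cells with an odd i7 index, and 734 and 457 with an even index. By mean log2 values 680 genes were higher. In 3 alternatives chosen after seeing the data the counts were 769 and 575 for Sox10 between 150 and 350 CPM, 396 lower for totals of 400000 to 1500000, and 624 and 483 for cells low in dissociation stress genes; a first limit of 2000 CPM for these left 4 Dorsal and 2 Ventral cells and was not used. The cause of these changes was not tested. Of the 23 named genes 18 were past 2-fold the same way in all 19 alternatives, 5 of which their rule had used. The alternative with no filter on low values leaves the fold of every gene as it was, so no gene of the text could fail it. Of 83 called genes in the text 69 kept their sign in all 19. The others turned as follows. With an odd index they were Pmp22 (-0.05), Mitf (1.43), Slc18a2 (-0.12), Igf1 (1.12), Col4a1 (-0.66) and Sparcl1 (-0.70), and with an even index Col4a5 (0.78). By mean log2 they were Gch1 (-0.08), Stmn2 (-0.33), Snap25 (-0.03) and Col4a5 (0.13), and with Sox10 at 25 CPM or more Snap25 (-0.42). With Sox10 between 150 and 350 CPM they were Mitf (0.43), Dgkk (-0.36), Dbh (-0.12), Gch1 (-0.80), Stmn2 (-0.41), Matn2 (-0.58), Col4a5 (0.18) and Chrna3 (-0.12). Without the cells high in fibroblast-like markers they were Matn2 (-0.24) and Col4a5 (0.08).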
